A study of Homo sapiens with 12 samples.

Results

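The 55 genes described here make the machinery of mitosis and of the G2/M transition, the step at which a cell that has copied its DNA begins to divide. They were taken from a list of gene names grouped by function. Each name matched 1 Ensembl ID in the deposited count table, so the 55 genes are a small set among the 59410 genes kept. They fall into 10 roles, from CDK1 and its cyclins, through the kinetochore, condensin and the kinesins, to the genes of cytokinesis and the proliferation markers FOXM1 and MKI67. Nascent RNA was measured by PRO-seq, in which RNA polymerases already engaged on DNA are allowed to extend their transcripts in isolated nuclei, so that the counts follow ongoing transcription and not stored mRNA. The cells were T47D, an established human breast cancer line that carries estrogen receptor alpha and grows in response to estrogen.

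As background, cyclin B and CDK1 together start mitosis, the spindle checkpoint holds back the anaphase-promoting complex until every chromosome is attached, and separase then cuts the links between sister chromatids. Transcription of many of these genes is low early in the cell cycle and peaks in late S and G2. In their promoters the CHR (cell cycle genes homology region) is bound by MuvB complexes, which repress as DREAM in resting cells and activate with B-MYB and FOXM1 in cycling cells, and CCAAT boxes are bound by NF-Y. In estrogen receptor-positive breast cancer cells estrogen promotes cell cycle entry, and MKI67 protein is a routine marker of proliferation in such tumours.

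The 12 libraries formed 6 groups of 2. In complete medium, cells received vehicle (0.1% DMSO) or 100 nM of fulvestrant, raloxifene or tamoxifen, and hormone-starved cells received vehicle (0.1% DMSO) or 1 nM estradiol. Fulvestrant blocks the estrogen receptor and lowers the amount of its protein, and raloxifene and tamoxifen are selective receptor modulators. All treatments lasted 1 h, and the labels record 3 days in medium for each group. Starvation is given by the group names and the design text, while the growth protocol describes the complete medium, and the sources used here do not name the solvent of estradiol. All groups are of 1 cell line, and the labels do not state whether a group's libraries are separate cultures. The p-values therefore reflect the spread of these libraries alone, and that spread may be technical. The libraries of each group are called 3 and 4, as their descriptions number them.

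Library totals ran from 3682311 to 7856803 counts, the lowest and highest both being raloxifene libraries. Each of the 55 genes had between 58 and 2268 counts in each library, and all 55 passed the filter on low counts, which kept 23375 genes for testing. The cells' identity was checked with 10 luminal epithelial markers, whose summed level ran from 3960 to 5940 CPM, the count unit scaled to library size (here by the TMM method), over the 12 libraries. The 6 basal and mesenchymal markers summed to between 9.65 and 15.2 CPM, with KRT5 and KRT14 at most 0.204 and 0.271 CPM. The 5 markers of fibroblasts, endothelium and blood summed to between 37.5 and 53.4 CPM, mostly from COL1A1 and CD68, with the leukocyte gene PTPRC at most 0.55 CPM. GREB1, an estrogen receptor target used to check the labels, rose by 2.22 ± 0.06 (log2 fold change ± SE) with estradiol in starved cells.

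Levels were compared between genes only per length, as CPM per kilobase (kb) of the gene's RefSeq span. In complete medium with vehicle the median of the 55 genes was 2.66 CPM per kb. UBE2C, the ubiquitin-conjugating enzyme of the anaphase-promoting complex, was highest at 10.3 and 10.6 CPM per kb in the 2 vehicle libraries. CENPA, the histone H3 variant that marks centromeres, followed at 9.88 and 9.77 CPM per kb, below both values of UBE2C. Both are short, with spans of 4.31 kb for UBE2C and 8.53 kb for CENPA, where the shortest of the 55 is 4.22 kb. The part of length in this order was not tested. At the other end, the kinesin gene KIF4A averaged 0.598 CPM per kb over a span of 130.78 kb, the longest of the 55. Counts per kb also depend on which part of a gene was counted, and the sources used here do not say.

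Promoter sequence was examined because many mitotic genes share the mode of control given as background, and most of the 55 moved together. Whether that control has a part in their movement was not tested. RefSeq promoters of assembly GRCh38.p14, from 250 bases before to 50 bases after the start, were at hand for 48 of the 55 genes. Where several starts were listed for a gene name, only the first was searched. The genes without an entry were AURKA, BUB3, TTK, UBE2C, BIRC5, TPX2 and FOXM1. The CHR was searched as the letters TTTGAA, as its variant TTTAAA and as its variant TTCGAA. The NF-Y box was searched as CCAAT, each motif on both strands, and matches of the 2 motifs were allowed to overlap. A CHR spelling was present in 43 of 48 promoters (89.6%). It was present in 25.3% of all 27305 promoters searched in this way and 18.5% of the promoters of tested genes. Between 50 bases before and 50 after the start it was present in 37 of 48 (77.1%), against 8.1% of all promoters. CCAAT was present in 35 of 48 (72.9%), against 35.7% of all promoters, and both motifs in 33 of 48 (68.8%), against 9.9%.

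The matches also had a position. CCAAT began 50 to 75 bases before the start in 45.8% of the 48 promoters, against 7.87% of all promoters. CHR matches were most frequent in the last 25 bases before the start, in 29.2% of the 48 and 1.92% of all promoters. A match is a description of letters in this window, not evidence that a factor binds there.

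**Figure D1:**
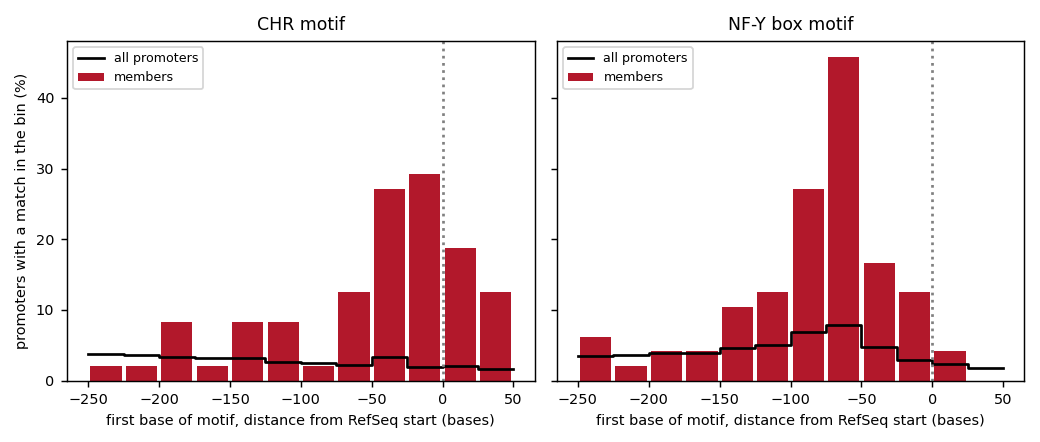
Share of promoters (vertical axis, %) with a CHR match (left) or a CCAAT match, the NF-Y box (right), whose first base lies in each 25-base bin of distance from the RefSeq start (horizontal axis, bases). Bars are the 48 genes with an entry and the line is all 27305 promoters; bars stand highest just before the start for CHR and 50 to 75 bases before it for CCAAT.

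Of the 8 genes described in every comparison (MKI67, CCNA2, CCNB1, CDK1, CDC20, PLK1, AURKA and FOXM1), 5 had a promoter entry with both motifs. The 250 bases before the start of each are shown to let these motifs be seen in place. They are written 5′ to 3′ on the gene's strand, with CHR and CCAAT matches in capitals, and TTCAAA and ATTGG are matches read on the opposite strand. In MKI67 the last capitals are a TTTGAA overlapped by an ATTGG.
MKI67: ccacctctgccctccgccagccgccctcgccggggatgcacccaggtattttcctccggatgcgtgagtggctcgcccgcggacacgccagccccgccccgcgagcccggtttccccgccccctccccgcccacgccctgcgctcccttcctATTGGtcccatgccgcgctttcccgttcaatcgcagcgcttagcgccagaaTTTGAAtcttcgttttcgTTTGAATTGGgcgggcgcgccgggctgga
CCNB1: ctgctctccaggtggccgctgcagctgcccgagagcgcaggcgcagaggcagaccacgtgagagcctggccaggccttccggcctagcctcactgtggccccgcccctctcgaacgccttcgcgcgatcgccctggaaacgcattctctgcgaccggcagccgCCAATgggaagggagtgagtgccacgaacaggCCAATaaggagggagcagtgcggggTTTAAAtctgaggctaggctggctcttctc
CDK1: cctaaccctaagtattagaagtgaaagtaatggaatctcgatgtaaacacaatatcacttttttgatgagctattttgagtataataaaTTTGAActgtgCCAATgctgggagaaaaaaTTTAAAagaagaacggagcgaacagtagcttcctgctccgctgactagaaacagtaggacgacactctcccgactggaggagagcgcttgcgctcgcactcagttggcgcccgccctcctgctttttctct
CDC20: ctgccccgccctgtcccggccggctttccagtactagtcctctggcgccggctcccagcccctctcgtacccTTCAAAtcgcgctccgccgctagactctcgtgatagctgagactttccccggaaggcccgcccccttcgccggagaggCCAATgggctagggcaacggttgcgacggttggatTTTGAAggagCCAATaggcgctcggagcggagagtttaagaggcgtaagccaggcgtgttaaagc
PLK1: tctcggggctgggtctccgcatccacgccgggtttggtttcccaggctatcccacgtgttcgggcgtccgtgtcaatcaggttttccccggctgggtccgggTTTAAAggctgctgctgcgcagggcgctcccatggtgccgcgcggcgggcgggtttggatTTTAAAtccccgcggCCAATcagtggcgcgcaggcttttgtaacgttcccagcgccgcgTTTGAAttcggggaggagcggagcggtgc
In GRCh38.p14 these are chr10:128126424-128126673 on the minus strand for MKI67, chr5:69166900-69167149 for CCNB1, chr10:60778081-60778330 for CDK1, chr1:43358731-43358980 for CDC20 and chr16:23678639-23678888 for PLK1, the last 4 on the plus strand. All 5 genes lay lower in starved than in complete medium, with the values given below by role.

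Hormone-starved cells were compared with cells in complete medium, both with vehicle, to see how the genes stood after starvation. The sources used here do not give the composition of the starvation medium. Mitotic genes were transcribed at a lower level in starved cells, in every role. In this comparison 50 of the 55 were lower at an adjusted p under 0.05 in edgeR's quasi-likelihood test, against 9.67% of all tested genes, and 0 were higher, against 9.1%. There were 0 higher also in DESeq2 and at an unadjusted p under 0.05, where 14.5% of all tested genes were higher. The median log2 fold change of the 55 was -0.58, against 0.01 for all tested genes. For 54 of the 55, both starved libraries were below both complete vehicle libraries, against 29% of all tested genes. In bulk cells a smaller share of cells in G2 and mitosis cannot be told apart from less transcription per cell.

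The per-library values were close together within each medium. As a share of all counts, the 55 genes took 0.477% and 0.489% in complete vehicle and 0.344% and 0.345% in starved vehicle, with Wilson 95% intervals from 0.472% to 0.495% and from 0.340% to 0.350%. These intervals cover counting error only. The median gene stood at 67.9% and 67.7% of its complete vehicle mean in the 2 starved vehicle libraries. The 10 luminal markers summed to 3960 to 3980 CPM in starved against 5840 to 5940 CPM in complete vehicle. Of them, ESR1 (-0.96), PGR (-1.13), XBP1 (-0.66) and KRT8 (-0.31) were lower in edgeR's test and SPDEF (0.51) was higher. FOXA1, GATA3, EPCAM, KRT18 and KRT19 lay between -0.09 and 0.08 and did not pass, and the part of these markers in the result was not tested. Basal markers (13.0 to 15.2 against 10.7 to 14.9 CPM) overlapped, and those of fibroblasts, endothelium and blood were at 46.0 to 48.3 against 38.3 to 42.9 CPM.

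**Figure D2:**
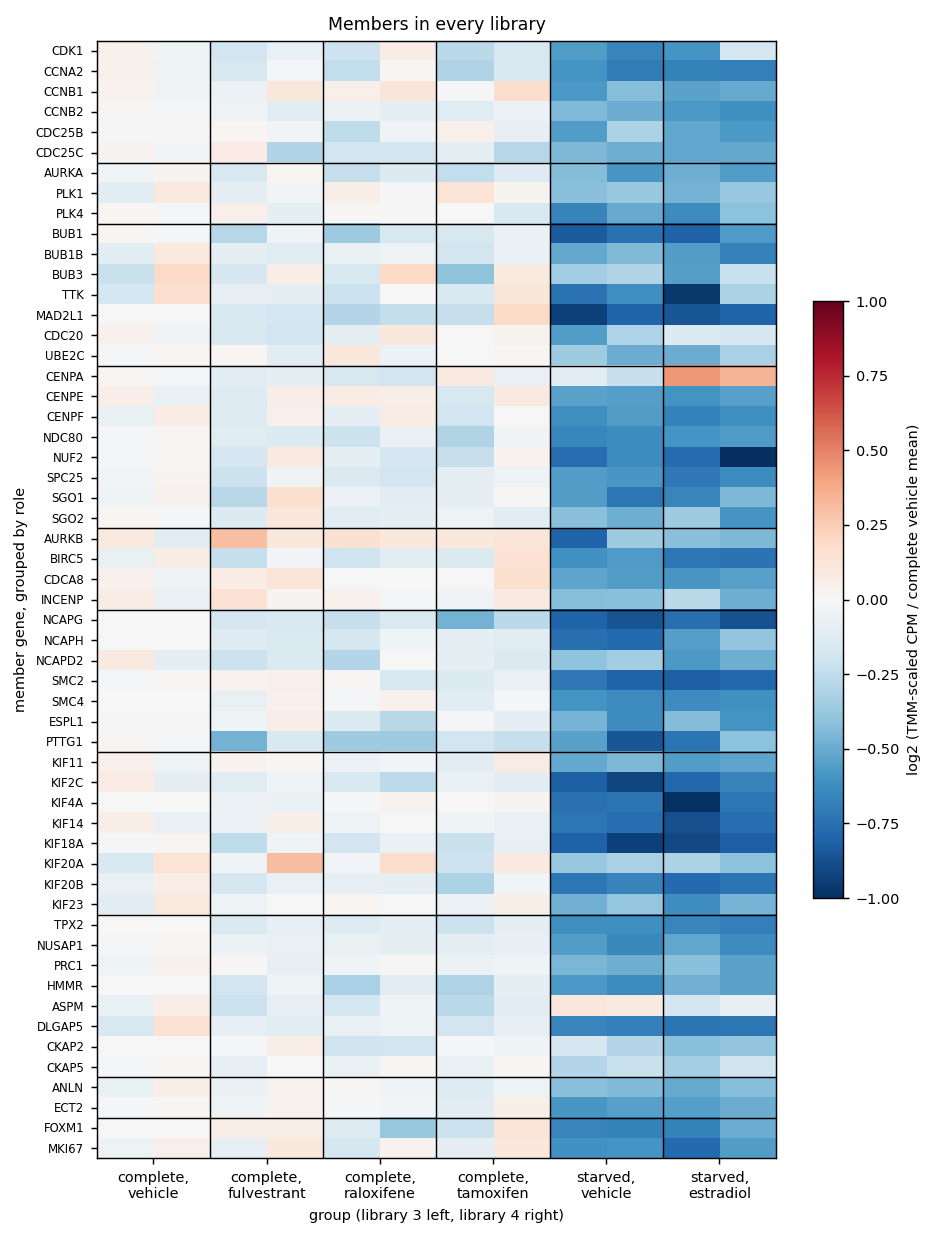
Each row is 1 of the 55 genes, grouped by role, and each column 1 of the 12 libraries; colour is the log2 ratio of the gene's TMM-scaled CPM to its complete vehicle mean. The 4 starved columns are blue in nearly every row, with ASPM and, under estradiol, CENPA as the visible exceptions.

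CDK1, the kinase that drives mitosis, its cyclins and the CDC25 phosphatases that activate it were lower in 6 of 6 cases, with a median log2 fold change of -0.49. CDK1 was at 72.5 and 68.4 CPM in complete vehicle and 47.9 and 44.7 CPM in starved vehicle (-0.61 ± 0.11). CCNB1, the main mitotic cyclin, was at 68.1 and 64.6 CPM against 44.6 and 49.3 CPM (-0.50 ± 0.09). Its relative CCNB2 was at 60.1 and 59.3 CPM against 44.0 and 42.4 CPM (-0.47 ± 0.08). In each case the groups did not overlap, and the edgeR adjusted p was 0.000529, 0.000406 and 0.000257 in turn. CCNA2, the cyclin of S phase and G2, was at 26.7 and 25 CPM against 17.1 and 15.9 CPM (-0.65 ± 0.13). The calls of CDC25B (-0.43 ± 0.13) and CDC25C (-0.47 ± 0.11) were weaker ones. Without complete vehicle library 3 the edgeR adjusted p was 0.121 for CDC25B and 0.0667 for CDC25C, and for CDC25B it was 0.109 without complete vehicle library 4 and 0.246 without starved vehicle library 3.

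Aurora A and the Polo-like kinases, which act at centrosomes and spindle poles, were lower in 3 of 3 cases, with a median of -0.50. AURKA was at 89.7 and 93.3 CPM in complete vehicle and 67.7 and 61.1 CPM in starved vehicle (-0.50 ± 0.08). PLK1, which also acts at kinetochores and in cytokinesis, was at 66.6 and 76.6 CPM against 53.5 and 55.1 CPM (-0.39 ± 0.09). For PLK4, which starts centriole duplication, the values were 29.6 and 28.7 CPM against 18.3 and 20.6 CPM (-0.59 ± 0.12). None of the 3 overlapped between media. The call of PLK1 was lost without complete vehicle library 4, its higher one (-0.29, edgeR adjusted p = 0.0717).

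In the spindle checkpoint and the anaphase-promoting complex 6 of 7 genes fell, with a median of -0.47. BUB1, a kinase that recruits checkpoint proteins to kinetochores, was at 46.0 and 45.0 CPM in complete vehicle and 25.6 and 27.2 CPM in starved vehicle (-0.79 ± 0.11, edgeR adjusted p = 2.91e-05). BUB1B, which encodes the checkpoint protein BUBR1, was at 107 and 123 CPM against 80.6 and 84.5 CPM (-0.47 ± 0.08). MAD2L1, which encodes MAD2, was at 18.8 and 18.9 CPM against 9.89 and 10.8 CPM (-0.87 ± 0.16). The fall of MAD2L1 was the largest of this role, and its groups stood far apart. CDC20, the activator of the complex in mitosis, was at 19.9 and 18.7 CPM against 13.1 and 15.6 CPM (-0.43 ± 0.14, edgeR adjusted p = 0.0306). The call of CDC20 did not hold when 1 library was left out, with an edgeR adjusted p of 0.219 and 0.0835 without complete vehicle libraries 3 and 4 and 0.293 without starved vehicle library 3. TTK, the checkpoint kinase MPS1, fell (-0.66 ± 0.16), but its adjusted p was 0.114 without complete vehicle library 4 and 0.0692 without starved vehicle library 3. UBE2C fell as well (-0.42 ± 0.10), with an adjusted p of 0.0502 without complete vehicle library 4 and 0.0776 without starved vehicle library 4. BUB3, which binds BUB1 and BUBR1, did not pass the test (-0.31 ± 0.16, edgeR adjusted p = 0.207), with complete vehicle libraries at 42.0 and 55.8 CPM.

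At the centromere and kinetochore, where chromosomes attach to microtubules, 7 of 8 genes fell, with a median of -0.58. CENPF, a large kinetochore protein, was at 225 and 249 CPM in complete vehicle and 155 and 161 CPM in starved vehicle (-0.58 ± 0.08). NDC80, which grips the microtubule, was at 59.5 and 60.5 CPM against 38.2 and 38.9 CPM (-0.64 ± 0.10). Its partner NUF2 was at 48.2 and 49.1 CPM against 28.7 and 31.4 CPM (-0.69 ± 0.12). The groups did not overlap for these 3 genes, with edgeR adjusted p of 1.23e-05, 4.62e-05 and 0.000186. CENPE, a kinetochore kinesin, SPC25, of the same complex as NDC80, and SGO1, which protects sister chromatid cohesion, lay between -0.63 and -0.55. SGO2 fell by 0.45, and its adjusted p was 0.0511 without complete vehicle library 3. CENPA was the exception, at 84.3 and 83.3 CPM against 77.6 and 71.3 CPM (-0.17 ± 0.08, edgeR adjusted p = 0.145).

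The chromosomal passenger complex, which corrects attachment errors and guides cytokinesis, was lower in 4 of 4 genes, with a median of -0.56. BIRC5, which encodes survivin, was at 63.9 and 70.9 CPM in complete vehicle and 44.4 and 45.6 CPM in starved vehicle (-0.58 ± 0.10). CDCA8, which encodes borealin, was at 47.2 and 44.2 CPM against 31.7 and 31.0 CPM (-0.55 ± 0.10). The scaffold gene INCENP was at 78.2 and 70.5 CPM against 55.4 and 55.7 CPM (-0.43 ± 0.09), and its adjusted p was 0.0589 without complete vehicle library 3. AURKB, the kinase of the complex, fell by 0.58 (SE 0.14), with starved libraries as far apart as 14.4 and 19.7 CPM. Its edgeR adjusted p was 0.0058, but 0.135 without complete vehicle library 3 and 0.166 without starved vehicle library 3.

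Condensin, which compacts chromosomes, separase and its inhibitor securin were lower in 7 of 7 genes, with a median of -0.69. SMC4, a core subunit of condensin, was at 243 and 245 CPM in complete vehicle and 161 and 157 CPM in starved vehicle (-0.62 ± 0.06, edgeR adjusted p = 1.23e-07). Its partner SMC2 was at 68.9 and 70.1 CPM against 42.4 and 39.9 CPM (-0.75 ± 0.08). NCAPG, a subunit of condensin I, was at 55.3 and 55.0 CPM against 31.7 and 30.3 CPM (-0.83 ± 0.10). Within each group these pairs lay within a few CPM, and the media did not overlap. NCAPH, also of condensin I, fell by 0.76, ESPL1, which encodes separase, by 0.54 and PTTG1, which encodes securin, by 0.69. NCAPD2 fell by 0.38 (edgeR adjusted p = 0.0102), and its adjusted p was 0.228 without complete vehicle library 3, and in the starved vehicle pair 0.104 without library 3 and 0.0522 without library 4.

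Among mitotic kinesins, motors that move along or take apart microtubules, 7 of 8 fell, with the lowest median of the 10 roles at -0.71. KIF18A, which dampens chromosome movement, showed the largest fall of the 55, from 129 and 133 CPM in complete vehicle to 74.6 and 68.6 CPM in starved vehicle (-0.87 ± 0.08, edgeR adjusted p = 8.21e-08). KIF14, of cytokinesis, was at 86.7 and 79.2 CPM against 50.4 and 49.0 CPM (-0.74 ± 0.08). KIF2C, which encodes the microtubule depolymerase MCAK, was at 56.5 and 50.3 CPM against 30.3 and 28.2 CPM (-0.87 ± 0.10). In all 3 the highest starved library was well below the lowest complete one. KIF4A fell by 0.74, KIF20B by 0.69, KIF11, which encodes the spindle motor Eg5, by 0.48 and KIF23, of the central spindle, by 0.43. KIF20A, also of the central spindle, did not pass (-0.34 ± 0.14, edgeR adjusted p = 0.108), at 27.7 and 33.8 CPM against 23.7 and 24.6 CPM.

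Of the proteins that build and steer spindle microtubules, 6 of 8 genes fell, with a median of -0.53. TPX2, which nucleates microtubules and activates Aurora A, was at 208 and 209 CPM in complete vehicle and 136 and 136 CPM in starved vehicle (-0.61 ± 0.06). NUSAP1, a microtubule bundler, was at 164 and 168 CPM against 113 and 106 CPM (-0.60 ± 0.06). DLGAP5, which stabilises kinetochore fibres, was at 67.6 and 83.1 CPM against 47.8 and 46.8 CPM (-0.66 ± 0.09). Neither medium reached into the other for these genes, with edgeR adjusted p of 1.3e-07, 4.37e-07 and 1.7e-05. HMMR fell by 0.60 and PRC1, which crosslinks the central spindle, by 0.47. CKAP5, a microtubule polymerase, fell by 0.26, and its adjusted p was 0.0873 without starved vehicle library 3. CKAP2 did not pass (-0.23 ± 0.09, edgeR adjusted p = 0.0694). ASPM, a spindle pole protein, was the only one of the 55 with both starved libraries above both complete ones, at 197 and 194 CPM against 173 and 191 CPM, and it did not pass either (0.11 ± 0.07, edgeR adjusted p = 0.34).

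The cytokinesis genes ANLN, which encodes the ring protein anillin, and ECT2, which activates RhoA, both fell. ANLN was at 271 and 299 CPM in complete vehicle and 213 and 210 CPM in starved vehicle (-0.43 ± 0.06). ECT2 was at 277 and 284 CPM against 187 and 193 CPM (-0.56 ± 0.06). FOXM1, the transcription factor of late cell cycle genes, was at 46.9 and 46.8 CPM against 29.7 and 29.4 CPM (-0.67 ± 0.12). For none of these genes did the media overlap. MKI67 was at 94.9 and 102 CPM against 64.7 and 65.5 CPM (-0.59 ± 0.09, edgeR adjusted p = 9.21e-05).

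**Figure D3:**
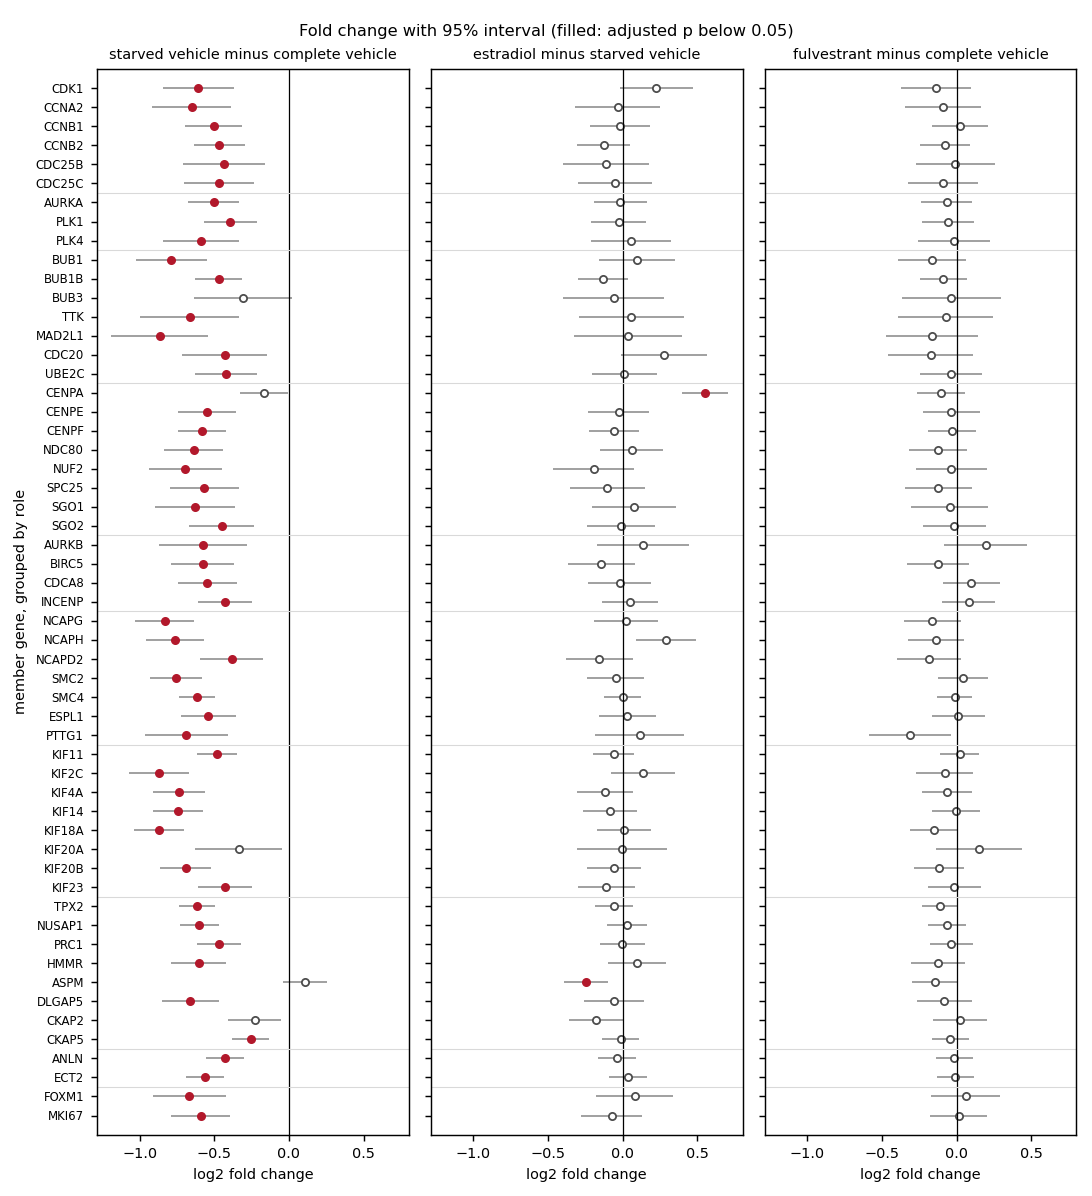
Log2 fold change (horizontal axis) with its 95% interval for each of the 55 genes, grouped by role, in starved vehicle minus complete vehicle (left), estradiol minus starved vehicle (middle) and fulvestrant minus complete vehicle (right); filled points have an adjusted p below 0.05. In the left panel 50 points are filled and lie below 0, in the middle only CENPA (0.55) and ASPM (-0.25) are filled, and in the right none is.

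Of the 50 calls, 45 were also made by DESeq2, and leaving out 1 of the 4 libraries left between 43 and 48 of them, with 11 genes losing the call in at least 1 such fit (those given by role above). In a fit of the 2 groups alone, BUB3 and KIF20A passed as well (edgeR adjusted p = 0.0309 and 0.0323), which gave 52 calls. The calls that DESeq2 did not make were those of CDC25B, CDC20, UBE2C, AURKB and NCAPD2 (DESeq2 adjusted p = 0.224, 0.27, 0.0532, 0.0539 and 0.0921). Without the filter on low counts, CDC25B and CDC20 also missed the threshold (edgeR adjusted p = 0.0811 and 0.119). Because the sources used here do not give the strand setting of the counts, genes that overlap one another are uncertain. A gene with at least 10% of the level overlapped 11 of the 55, such as BUB1B-PAK6 for BUB1B, SGO1-AS1 for SGO1, PRC1-AS1 for PRC1 and LCORL for NCAPG. FOXM1 and CCNA2, described in every comparison, are also among them. FOXM1, at a mean of 40.3 CPM over the 12 libraries, was overlapped by ITFG2 (96.1 CPM) and RHNO1 (46.5 CPM). CCNA2, at 21.5 CPM, was overlapped by EXOSC9 (21.2 CPM).

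Starvation results were also counted by promoter motif. Of 43 genes with a CHR match, 40 were lower in starved medium, with a median of -0.58, and of 5 without one, 4 were lower, with a median of -0.47. With CCAAT 32 of 35 were lower (median -0.57), and without it 12 of 13 (median -0.59). Genes counted as without a match may hold one at a start that was not searched. These splits were not tested.

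Estradiol given for 1 h to starved cells was compared with starved vehicle to see whether hormone moved these genes at once. Few of the mitotic genes passed the test, and the median log2 fold change was -0.02, against -0.01 for all tested genes. It was -0.045 without estradiol library 4 and 0.002 without estradiol library 3. In edgeR's quasi-likelihood test 1 gene was higher, where 5.04% of all tested genes were, and 1 was lower, where 3.74% were. For 54 of the 55 the 95% interval of the fold change lay within 1.5-fold in either direction. The median gene was at 66.7% and 68.8% of its complete vehicle mean in the 2 estradiol libraries, on both sides of the 67.9% and 67.7% of starved vehicle.

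CENPA was the gene that rose, from 77.6 and 71.3 CPM in starved vehicle to 113 and 106 CPM with estradiol (0.55 ± 0.07, edgeR adjusted p = 1.84e-05). Both estradiol libraries also stood above the 8 libraries in complete medium, which ran from 73.5 to 89.3 CPM. CENPA was the only gene called under every alternative run, DESeq2 and each left-out library included. On chromosome 2, SLC35F6 ends 4825 bases before the start of CENPA, at 26764284 to 26781231 in GRCh38.p14. SLC35F6 rose from 27.1 and 23.7 CPM to 46.5 and 43.6 CPM (0.83 ± 0.12, edgeR adjusted p = 3.36e-05), and its part in the CENPA counts was not tested.

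ASPM fell with estradiol, from 197 and 194 CPM to 159 and 172 CPM (-0.25 ± 0.07, edgeR adjusted p = 0.0334). The groups did not overlap, yet the call did not hold without starved vehicle library 3 (adjusted p = 0.228) or 4 (0.17), without estradiol library 3 (0.326) or 4 (0.0511), or in DESeq2 (0.183). NCAPH, at 30.9 and 30.4 CPM against 35.5 and 39.6 CPM, had an edgeR adjusted p of 0.0738 (0.29 ± 0.10). CDK1 was at 46.8 and 62.5 CPM with estradiol (0.23 ± 0.12, edgeR adjusted p = 0.314). It passed only without estradiol library 3, the lower one (0.44, adjusted p = 0.0407). The other genes followed in every comparison gave a log2 fold change of -0.08 for MKI67, -0.03 for CCNA2, -0.02 for CCNB1, 0.28 for CDC20, -0.03 for PLK1, -0.02 for AURKA and 0.08 for FOXM1, and none passed.

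**Figure D4:**
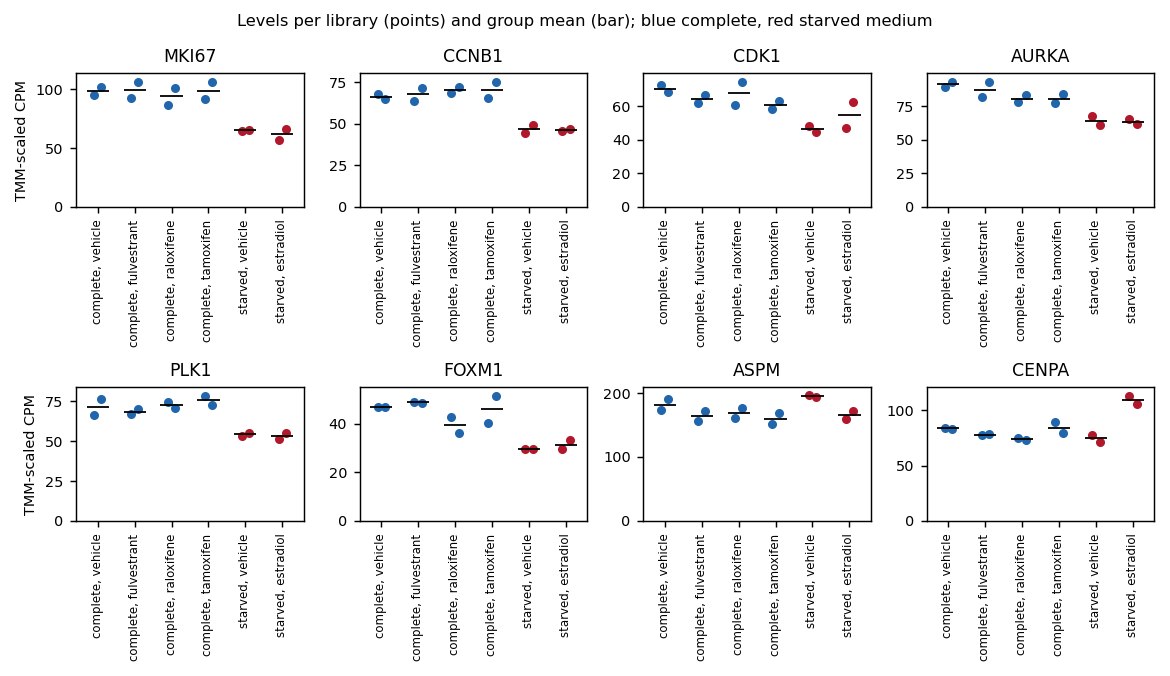
TMM-scaled CPM (vertical axis, from 0) of 8 genes in each library (points) and the group mean (bar), by group (horizontal axis), with complete medium in blue and starved medium in red. MKI67, CCNB1, CDK1, AURKA, PLK1 and FOXM1 are lower in both starved groups, ASPM is not, and CENPA is highest in starved cells given estradiol, at 113 and 106 CPM.

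Set against complete vehicle, starved cells given estradiol for 1 h still had low levels of these genes. This comparison shares its estradiol libraries with the one above and its complete vehicle libraries with that of starved and complete vehicle. It gives the values side by side. In edgeR's quasi-likelihood test 50 of 55 were lower, against 8.11% of all tested genes, and 1 was higher, CENPA, against 8.09%. The median was -0.55, against 0.00 for all tested genes. NUF2 was lowest, at 28.6 and 23.6 CPM with estradiol (-0.89 ± 0.12), and SMC4 (-0.62 ± 0.06), TPX2 (-0.67 ± 0.06) and KIF18A (-0.86 ± 0.08) had edgeR adjusted p of 2.24e-07, 7.72e-08 and 1.98e-07. CENPA was 0.39 ± 0.08 higher (edgeR adjusted p = 0.000945). The genes that did not pass were BUB3 (-0.37), KIF20A (-0.34), CDC20 (-0.16) and ASPM (-0.14).

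Of the genes followed throughout, CCNA2 stood at -0.69, MKI67 at -0.67, FOXM1 at -0.59, CCNB1 and AURKA at -0.52, and PLK1 at -0.42. CDK1 stood at -0.38 ± 0.11 (edgeR adjusted p = 0.0254), and its adjusted p was 0.225 and 0.0778 without complete vehicle libraries 3 and 4 and 0.468 without estradiol library 3. PLK1 missed the threshold without complete vehicle library 4 (adjusted p = 0.0564). Leaving out 1 library left between 41 and 47 of the 51 calls, and 14 genes lost theirs in at least 1 such fit.

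In complete medium each drug was compared with vehicle after 1 h, to see whether blocking the receptor moved mitotic genes. Of the 55 genes 0 passed edgeR's quasi-likelihood test with fulvestrant, where 1.16% of all tested genes were called in either direction, 0 with raloxifene (0.569%) and 0 with tamoxifen (0.0513%). DESeq2 also called 0 in each. At an unadjusted p under 0.05, 1 of the 55 was lower with fulvestrant (4.15% of all tested genes), 9 with raloxifene (4.67%) and 5 with tamoxifen (3.42%). None of the 55 was higher at that threshold (0 with each drug), where 3.35%, 5.11% and 3.13% of all tested genes were. The 3 comparisons share the same vehicle libraries.

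Values were nonetheless mostly on the low side of the vehicle. The log2 fold change was below 0 for 44 genes with fulvestrant, 43 with raloxifene and 43 with tamoxifen, with medians of -0.06, -0.08 and -0.07, against 0.01 for all tested genes in each. These medians moved with single libraries. The fulvestrant median was -0.034 without complete vehicle library 4 and -0.036 without fulvestrant library 3, the raloxifene median -0.041 without raloxifene library 3, and the tamoxifen median -0.112 without tamoxifen library 4. The median gene was at 93.9% and 97.9% of its vehicle mean in the fulvestrant libraries, 93.3% and 96.8% in the raloxifene libraries and 92.7% and 97.0% in the tamoxifen libraries. In each drug library 3 was the lower of the pair. The 95% interval lay within 1.5-fold in either direction for 54, 53 and 55 genes in turn, so changes beyond that size were outside the interval for all but PTTG1 and MAD2L1.

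Among single genes, securin's PTTG1 was at 32.9 and 32.2 CPM in vehicle, 23.4 and 29.3 CPM with fulvestrant (-0.31 ± 0.13, edgeR adjusted p = 0.569) and 25.4 and 25.3 CPM with raloxifene (-0.36 ± 0.14, edgeR adjusted p = 0.373). Its values were below vehicle in all 4 of those libraries. NCAPG was at 39.7 and 45.8 CPM with tamoxifen, against 55.3 and 55.0 CPM in vehicle (-0.37 ± 0.09, edgeR adjusted p = 0.287, unadjusted 0.000599). HMMR was at 68.5 and 80.1 CPM with raloxifene and 69.4 and 80.2 CPM with tamoxifen, against 86.4 and 85.5 CPM in vehicle (-0.24 ± 0.09 and -0.21 ± 0.09).

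Most of the genes followed throughout lay close to vehicle, and none passed. AURKA was at 78.1 and 83.4 CPM with raloxifene and 77.3 and 83.9 CPM with tamoxifen, below both vehicle libraries (89.7 and 93.3 CPM). Its fulvestrant libraries were at 82.1 and 92.8 CPM. With fulvestrant the 8 genes ran from -0.17 (CDC20) to 0.06 (FOXM1). MKI67 and CCNB1 were at 0.02 and 0.03, CCNA2 at -0.09, CDK1 at -0.14, PLK1 at -0.06 and AURKA at -0.07. For raloxifene the range was -0.22 (FOXM1) to 0.08 (CCNB1), with MKI67 at -0.08, CCNA2 at -0.15, CDK1 at -0.10, CDC20 at -0.03, PLK1 at 0.04 and AURKA at -0.19. For tamoxifen it was -0.24 (CCNA2) to 0.09 (PLK1), with MKI67 at 0.01, CCNB1 at 0.08, CDK1 at -0.22, CDC20 at 0.02, AURKA at -0.18 and FOXM1 at -0.04. In the same libraries GREB1 fell by 1.15 with fulvestrant and 0.47 with raloxifene, and stood at -0.25 with tamoxifen (edgeR adjusted p = 0.0975).

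The drugs were also compared with each other, as 3 pairs at the same 100 nM and 1 h. Of the 55 genes 0 passed edgeR's quasi-likelihood test between raloxifene and fulvestrant (0.103% of all tested genes called), tamoxifen and fulvestrant (0.462%), or tamoxifen and raloxifene (0.00428%), and DESeq2 called 0 in each. At an unadjusted p under 0.05 there were 3, 1 and 1 of the 55, against 4.9%, 5.08% and 4.54% of all tested genes. All 55 intervals lay within 1.5-fold in each pair. The medians were -0.03, -0.03 and 0.00, and with 1 library left out they ran from -0.050 to 0.018, from -0.070 to 0.035 and from -0.039 to 0.048. FOXM1 was at 42.9 and 36.0 CPM with raloxifene and 49.1 and 48.7 CPM with fulvestrant (-0.28 ± 0.11, edgeR adjusted p = 0.981), and its tamoxifen libraries were at 40.4 and 51.3 CPM. Across the 3 pairs the other 7 genes followed throughout lay between -0.15 (CCNA2, tamoxifen against fulvestrant) and 0.19 (CDC20, the same pair).

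Genes of the same processes outside the 55 were followed in 6 lists, whose counts in starved against complete vehicle stand beside the 9.67% of all tested genes called lower and 9.1% called higher. In starved against complete vehicle, 44 of 56 other mitotic genes fell and 0 rose, with a median of -0.57 (DESeq2 called 39 lower and 0 higher). Among them CIT, which encodes citron kinase of cytokinesis, fell by 0.70, the kinesin KIF15 by 0.66, TOP2A, the topoisomerase that untangles sister DNA, by 0.82 and DEPDC1B by 0.68. Genes of DNA replication and G1/S fell in 35 of 38 cases and rose in 0, with a median of -0.52 (DESeq2 called 29 lower and 0 higher). Neither list had a gene higher at an unadjusted p under 0.05. The ribonucleotide reductase subunit RRM2 fell by 0.53, CDC45 of the replicative helicase by 0.84, POLA2 of DNA polymerase alpha by 0.56 and the helicase subunit MCM5 by 0.92.

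Lists of subunits and regulators had genes called in both directions by edgeR. DESeq2 called 4 lower and 0 higher in the anaphase-promoting complex list, 4 and 1 in cohesin, and 8 and 2 among the regulators. It did not call CDC26 (DESeq2 adjusted p = 0.089) or LIN37 (0.312). The edgeR results follow. Of 17 genes of the anaphase-promoting complex and its inhibitors 6 fell, such as ANAPC1 (-0.44 ± 0.07), ANAPC7 (-0.38 ± 0.07) and FBXO5, which encodes the inhibitor EMI1 (-0.51 ± 0.11), and 1 rose, CDC26 (0.50 ± 0.13), with a median of -0.16. In cohesin and its loaders 5 of 12 fell, such as SMC1A (-0.50 ± 0.07) and SMC3 (-0.41 ± 0.09), and 1 rose, PDS5B (0.46 ± 0.07), with a median of -0.16. In the list of 21 MuvB, B-MYB, pocket protein and NF-Y regulators 10 fell, with a median of -0.18. Among them were LIN9 (-0.66 ± 0.07), RBL1 (-0.57 ± 0.07) and LIN54 (-0.43 ± 0.08). E2F7 (-0.78 ± 0.08), which the list also held although it is of none of these kinds, fell as well. In that list 3 rose, namely the NF-Y subunit genes NFYB (0.55 ± 0.10) and NFYC (0.30 ± 0.07) and LIN37 (0.56 ± 0.19). Some of these calls rested on single libraries. Without complete vehicle library 3 the edgeR adjusted p was 0.0739 for FBXO5, 0.107 for CDC26, 0.0655 for NFYC and 0.326 for LIN37. Without starved vehicle library 3 it was 0.219 for CDC26, 0.0613 for NFYC and 0.138 for LIN37, and LIN37 also missed the threshold without the other library of each group (0.0548 and 0.137).

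Of 13 CDK inhibitors and quiescence genes 3 rose and 1 fell, with a median of 0.08 (DESeq2 called 0 lower and 3 higher). CDKN2B, which encodes the CDK4 and CDK6 inhibitor p15, was at 10.0 and 9.98 CPM in complete vehicle and 31.3 and 28.6 CPM in starved vehicle (1.58 ± 0.15, edgeR adjusted p = 1.44e-07). Both starved libraries stood far above both complete ones. The antiproliferative gene BTG1 (0.52 ± 0.07) and CCNG2, which encodes cyclin G2 (0.49 ± 0.09), also rose, and CDKN2C, which encodes p18, fell (-0.53 ± 0.14). The call of CDKN2C was lost without complete vehicle library 3 (edgeR adjusted p = 0.156) and without starved vehicle library 4 (0.108).

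The same lists were read for estradiol against starved vehicle, where 3.74% of all tested genes were called lower and 5.04% higher. Called lower were 2 of 56 other mitotic genes, 2 of 21 regulators and 1 of 12 cohesin genes. In the anaphase-promoting complex list 1 of 17 was higher, and in the replication list 1 of 38. Of 13 CDK inhibitors and quiescence genes 1 was lower and 1 higher. CCNG2 fell from 119 and 121 CPM to 62.4 and 76.5 CPM (-0.80 ± 0.09, edgeR adjusted p = 1.25e-06). GINS2, of the replicative helicase, rose from 34.4 and 34.3 CPM to 55.8 and 48.8 CPM (0.61 ± 0.10, edgeR adjusted p = 0.000213). The antiproliferative gene TOB1 rose by 0.74 and ANAPC7 by 0.25, while NFYB (-0.39), NFYC (-0.41), PDS5B (-0.23), LMNB1 (-0.26) and SAPCD2 (-0.36) fell. Of these, ANAPC7, LMNB1 and PDS5B missed the threshold without any 1 of the 4 libraries, with edgeR adjusted p from 0.0845 to 0.281. NFYB kept its call only without estradiol library 4, and SAPCD2 only without estradiol library 3, with adjusted p from 0.0804 to 0.427 in the other fits. The other genes of the 6 lists did not pass. DESeq2 called 2 genes of the lists lower and 2 higher. With each drug against vehicle 0 genes of the lists passed edgeR's quasi-likelihood test or DESeq2. The 6 lists held 56, 38, 17, 12, 21 and 13 tested genes, in the order given above. At an unadjusted p under 0.05, 5 of their genes were lower and 3 higher with fulvestrant, against 4.15% and 3.35% of all tested genes. With raloxifene 19 were lower and 0 higher, against 4.67% and 5.11%. With tamoxifen 16 were lower and 1 higher, against 3.42% and 3.13%. Of the 56 other mitotic genes, 4, 13 and 11 were lower with the 3 drugs in turn.

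Some of the mitotic genes start close to a gene on the other strand, so these neighbours were set beside them. How often this holds over all genes was not counted. Starts inside the mitotic gene were included, as for FAM53C in CDC25C and MATCAP2 in ANLN. A neighbour on the opposite strand started within 1000 bases of the start in 17 pairs where both genes were tested. In starved against complete vehicle 15 of the 17 mitotic genes and 3 of the 17 neighbours were lower, against 9.67% of all tested genes. The median log2 fold change was -0.60 for the mitotic genes, -0.10 for their neighbours and 0.01 for all tested genes. The mitotic gene had the lower value in 15 of 17 pairs. In 12 pairs the mitotic gene fell and its neighbour did not pass the test. A neighbour that did not pass need not be unmoved. CDC20-DT was at -0.425 ± 0.215 beside CDC20 at -0.43, and CENPB at -0.34 ± 0.17 beside CDC25B at -0.43. PDZD11 beside KIF4A had only 2.7 CPM in complete vehicle and an SE of 0.41. Some of the other neighbours were near 0, as in the pairs below, and some were not. AIRIM beside CDCA8 was at -0.231 ± 0.125 and BRD8 beside KIF20A at -0.148 ± 0.069. The difference within pairs was not tested.

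KIF18A fell by 0.87 while METTL15, which starts 232 bases away on the other strand, was at 317 CPM in complete and 336 CPM in starved vehicle (0.09 ± 0.06, edgeR adjusted p = 0.392). MAD2L1 fell by 0.87, and its divergent transcript MAD2L1-DT was at 21.7 and 21.0 CPM (-0.04 ± 0.13). NUF2 fell by 0.69 beside RGS5, at 76.0 and 80.3 CPM (0.09 ± 0.09). In these 3 pairs the neighbour's group means differed by little. The neighbours that fell were OIP5 beside NUSAP1 (-0.66 ± 0.11), itself a centromere gene, DCAF16 beside NCAPG (-0.56 ± 0.12) and IFT80 beside SMC4 (-0.19 ± 0.06). With unknown strand setting, reads near a shared start cannot be given to 1 strand with certainty.

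**Figure D5:**
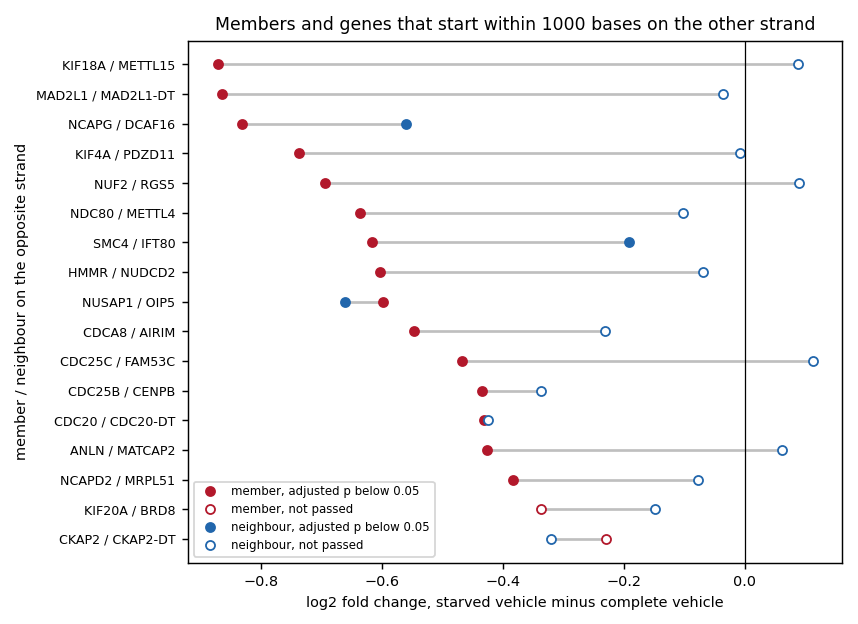
Log2 fold change in starved minus complete vehicle (horizontal axis) for each mitotic gene (red) and the gene that starts within 1000 bases on the other strand (blue), 1 pair a row; filled points have an adjusted p below 0.05. Red points lie to the left of blue in 15 of 17 pairs, and 3 blue points are filled.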

How the data were processed

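The authors deposited unnormalized counts per Ensembl gene ID for 12 PRO-seq libraries in 6 groups of 2. The submitters' processing notes name build hg38 and the tools Bowtie2 2.4.4, SAMtools 1.9 and cutadapt 1.8.1. The sources used here do not give how reads were counted (tool, annotation, strand, part of the gene), and PCR copies cannot be told from separate molecules. Of 60605 IDs, 60463 had a symbol, and where IDs shared one the ID with most counts was kept. The 142 IDs without a symbol were kept under their ID, which left 59410 genes. Spans and promoters came from RefSeq tables of GRCh38.p14.

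Models were fitted with edgeR 4.0.16 (R 4.3.3). The filterByExpr function removed low genes, libraries scaled by TMM, and all 12 libraries entered 1 quasi-likelihood fit whose single term was the group. In each of 9 comparisons, Benjamini-Hochberg adjustment covered all 23375 genes tested, and the threshold was an adjusted p of 0.05. The scripts were tested on simulated data. Alternatives were DESeq2 1.42.0, other scalings and filters, a fit of the compared groups alone, a block on the library number, and each library left out in turn. CPM are TMM-scaled, and errors of fold changes are standard errors.

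The 55 genes and the other lists were chosen with earlier results of these data known. Genes named were all 55 by role, with per-library values for the 3 of each role with the smallest adjusted p in starved against complete vehicle. MKI67, CCNA2, CCNB1, CDK1, CDC20, PLK1, AURKA and FOXM1 were named in every comparison, as was any gene past the threshold against the majority, and up to 4 genes of each other list. SLC35F6 and GREB1 were added to these, and examples of overlapping and neighbouring genes, and of genes near the threshold, were chosen after their values were seen.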

Additional observations from a re-analysis of the deposited data

How the results depend on the processing

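Across the alternatives no called gene changed direction. In starved against complete vehicle the median log2 fold change of the 55 genes was -0.55 without a filter on low counts and ran from -0.57 to -0.53 when 1 library was left out, with 43 to 48 genes called. In estradiol against starved vehicle DESeq2 called 1 of the 55 genes, and leaving out 1 library gave 1 to 2. The raloxifene median ran from -0.11 to -0.041 when 1 library was left out, lowest without complete vehicle library 3. The labels do not say that the library numbers pair samples, and deviations of same-numbered libraries correlated with r from 0.0563 to 0.362 over the 9 comparisons. With the number as a replicate block, 53 genes were called in starved against complete vehicle (BUB3, KIF20A and CKAP2 added, adjusted p = 0.0123, 0.0242 and 0.0442), 3 in estradiol against starved vehicle (NCAPH added), 53 in estradiol against complete vehicle and 1, NCAPG, with tamoxifen. The causes of these differences were not tested. With 2 libraries a group, the median 95% interval reached 0.18 to 0.20 log2 units to each side of a gene's fold change. Fits without 1 library leave a group with 1 sample, which is assumed to vary like the others.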
